A study of Mus musculus with 6 samples.

Results

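Hepcidin and the genes that sense, move and use iron were followed in the liver of Fra-1hep mice through 12 probes of 10 genes, out of 55681 probes on the array. The genes were Hamp and Hamp2 (hepcidin), Bmp6, Hjv and Tfr2 (sensing), Id1 and Smad7 (targets of SMAD signalling), Tfrc and Slc40a1 (uptake and export) and Alas2 (heme synthesis). A probe was taken where its RefSeq accession belongs to one of these genes, and every probe was kept apart. All 12 probes passed the filter on dim signal. The genes were proposed with the contrast of Fra-1hep and wild type in view, in which Hamp and Alas2 were already known to be lower, so their ratios are a description and carry no test.

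The animals were Fra-1hep mice on the C57BL/6J strain, whose hepatocytes overexpress Fra-1, a subunit of the transcription factor AP-1, and C57BL/6J wild-type mice, all 26 to 28 weeks old and untreated. The wild-type mice were fed chow; the diet of the Fra-1hep mice, the promoter that drives Fra-1 and the sex of the animals are not given in the sources used here. Each of 5 arrays compared 1 Fra-1hep mouse (Cy5) with RNA pooled from the livers of 5 wild-type mice (Cy3). The sixth array compared pools of both genotypes with the dyes the other way round. The design text names 6 individual mice, and the sample labels, which name 5 and the dye-swapped pools, were followed.

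Because wild type is a single pool, the spread between wild-type mice was not measured, for hepcidin or any other gene. The wild-type ranges below are of this 1 pool on several arrays, not of mice. The arrays of mice 2 and 3 differed by no more than replicate spots of a probe do. Their difference was 1.03 times that noise, against 1.80 to 2.25 times for the 9 other pairs of mice. They were therefore averaged and counted as 1 sample, and n = 4 for every SD below. Each SE is from the fit to these 4 samples and the dye-swapped array. The share of probes well above background ran from 48.5 to 58.9% for Fra-1hep RNA and from 45 to 50.7% for the wild-type pool, and the number of arrays limits the precision. Fosl1, which encodes Fra-1, does not check the labels: neither genotype gave its probe a signal well above background on any of the 6 arrays. Of the 10 hepatocyte markers looked at, all were well above background on all 6 arrays; 2 fell (Alb at -0.65 and Apoa1 at -0.34), the median was -0.06 and the log2 ratio of the summed signal ran from -0.16 to 0.04. The Alb call ended from the mouse arrays alone (-0.21, adjusted p = 0.12 by limma) and the Apoa1 call with median centring (-0.17, adjusted p = 0.266), no offset (0.0956) and the processed signals (0.101). The whole liver was measured, so fewer cells of a type and less RNA per cell cannot be told apart.

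Hepcidin is a small peptide hormone secreted by hepatocytes that lowers iron in blood by binding ferroportin, the iron exporter encoded by Slc40a1, and sending it for degradation. Its gene is switched on by BMP6 and BMP2 from sinusoidal endothelial cells, acting through BMP receptors, the coreceptor hemojuvelin (Hjv) and SMAD proteins, and by inflammatory IL-6 through STAT3. Transferrin receptor 2 (Tfr2) reports the iron load of transferrin, and transferrin receptor 1 (Tfrc) takes transferrin iron into cells. Mice carry a pair of hepcidin genes, Hamp and Hamp2, of which Hamp encodes the iron-regulating hormone.

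The sequences upstream of both hepcidin genes are shown because hepcidin is known to be driven through BMP and STAT elements upstream of its start, and because the genes differed from each other on the arrays. Both are from RefSeq, GRCm38.p6, on the minus strand, and hold the 250 bases before the annotated start, 5′ to 3′: Hamp at chr7:30944030-30944279 and Hamp2 at chr7:30924182-30924431. Capitals mark motif matches, in the order GGCGCC (core of the BMP response element), TTCNNNGAA (STAT) and TGANTCA (AP-1) where present.
Hamp: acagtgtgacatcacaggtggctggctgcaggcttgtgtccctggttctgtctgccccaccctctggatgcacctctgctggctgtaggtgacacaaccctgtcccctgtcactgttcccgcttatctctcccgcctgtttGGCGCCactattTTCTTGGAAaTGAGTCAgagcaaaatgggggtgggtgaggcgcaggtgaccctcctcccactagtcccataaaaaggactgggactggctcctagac
Hamp2: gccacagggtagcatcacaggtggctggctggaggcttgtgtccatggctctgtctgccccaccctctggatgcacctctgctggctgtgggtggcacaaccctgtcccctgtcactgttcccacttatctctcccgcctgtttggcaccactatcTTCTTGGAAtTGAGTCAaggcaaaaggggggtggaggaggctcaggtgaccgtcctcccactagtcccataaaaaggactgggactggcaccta

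The 2 windows were identical in 227 of 253 aligned columns (89.7%), with 20 mismatches and 6 gap columns. Hamp held GGCGCC at -109 to -104 from the start, TTCTTGGAA at -97 to -89 and TGAGTCA at -87 to -81. Hamp2 held the same STAT and AP-1 letters, at -94 to -86 and -84 to -78, and no match of GGCGCC. Over 32851 RefSeq promoter windows of the same length and on both strands, 9.59% held GGCGCC, 7.02% TTCNNNGAA, 6.75% TGANTCA and 6.02% the E-box CACGTG, the fourth motif searched. Of the 10 genes 6 had windows (9 in all), and the other matches were GGCGCC in 1 Tfrc window and CACGTG in Bmp6. The motifs do not overlap one another in these windows, and a match is a string of letters, not a measured site.

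**Figure D1:**
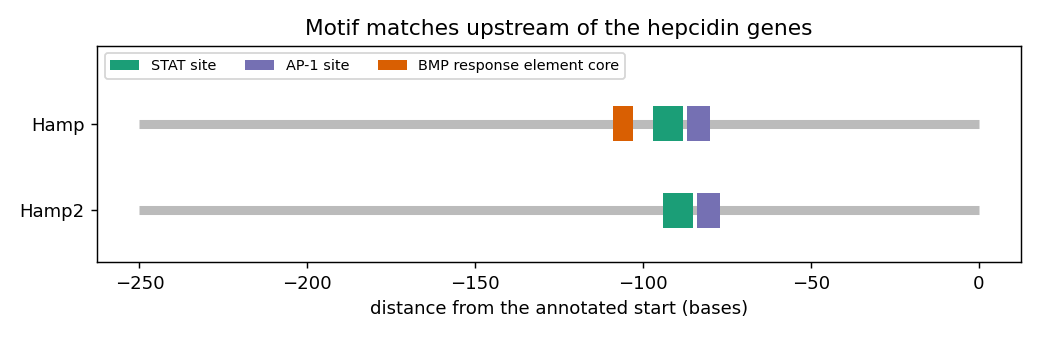
Motif matches in the 250 bases upstream of Hamp and Hamp2, by distance from the annotated start in bases (x axis). Both genes hold a STAT match followed by an AP-1 match, and the BMP response element core is matched in Hamp at -109 to -104.

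Hamp (NM_032541, probe A_52_P669922) was lower than the wild-type pool in every Fra-1hep mouse, from 1.93-fold in mouse 1 to 13.4-fold in mouse 4. Its processed signal was 11448.2 in mouse 1, 7381 in mouse 2, 7328.4 in mouse 3, 1474.9 in mouse 4 and 1671.8 in mouse 5, and the wild-type pool on the 6 arrays gave 18624.2 to 24077.1. The highest Fra-1hep signal was thus below the lowest wild-type signal, and the Fra-1hep values fell into a lower pair (mice 4 and 5) and 3 that were nearer to wild type. As log2 ratios of Fra-1hep over wild type, mice 1 to 5 were at -0.95, -1.66, -1.71, -3.75 and -3.46, and the dye-swapped pools at -2.55. The fitted log2 ratio was -2.50 (SE 0.46, SD between samples 1.36, n = 4), which is 5.68-fold lower. Among the 30105 probes tested this value ranked 17 from the lowest. The part of the hepatocyte marker values in the Hamp values was not tested.

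Hamp2 (NM_183257, probe A_52_P21486) was also below wild type on all 6 arrays, but the mice were ordered differently. Its processed signal was 1669.8 in mouse 1, 425.2 in mouse 2, 370.1 in mouse 3, 173.2 in mouse 4 and 1411.7 in mouse 5, against 1747.9 to 2618.5 for the wild-type pool. Mouse 5, among the lowest for Hamp, was the nearest to wild type for Hamp2. The log2 ratios of mice 1 to 5 were -0.38, -2.16, -2.48, -3.06 and -0.32, and that of the dye-swapped pools was -1.86. The fitted log2 ratio was -1.69 (SE 0.47, SD 1.38, n = 4), or 3.23-fold lower.

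The log2 ratio of Hamp minus that of Hamp2 was farthest from 0 in mouse 5, at -3.15. On the other arrays it was -0.56 in mouse 1, 0.50 in mouse 2, 0.77 in mouse 3, -0.69 in mouse 4 and -0.69 in the dye-swapped pools. Without mouse 5 the fitted values were -2.34 for Hamp and -1.89 for Hamp2. The transcripts are close relatives and signal shared between the probes was not measured; in mouse 5 the probes gave different ratios. With the processed signals of the scanner software, mouse 5 was at -3.48 for Hamp and -0.31 for Hamp2.

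**Figure D2:**
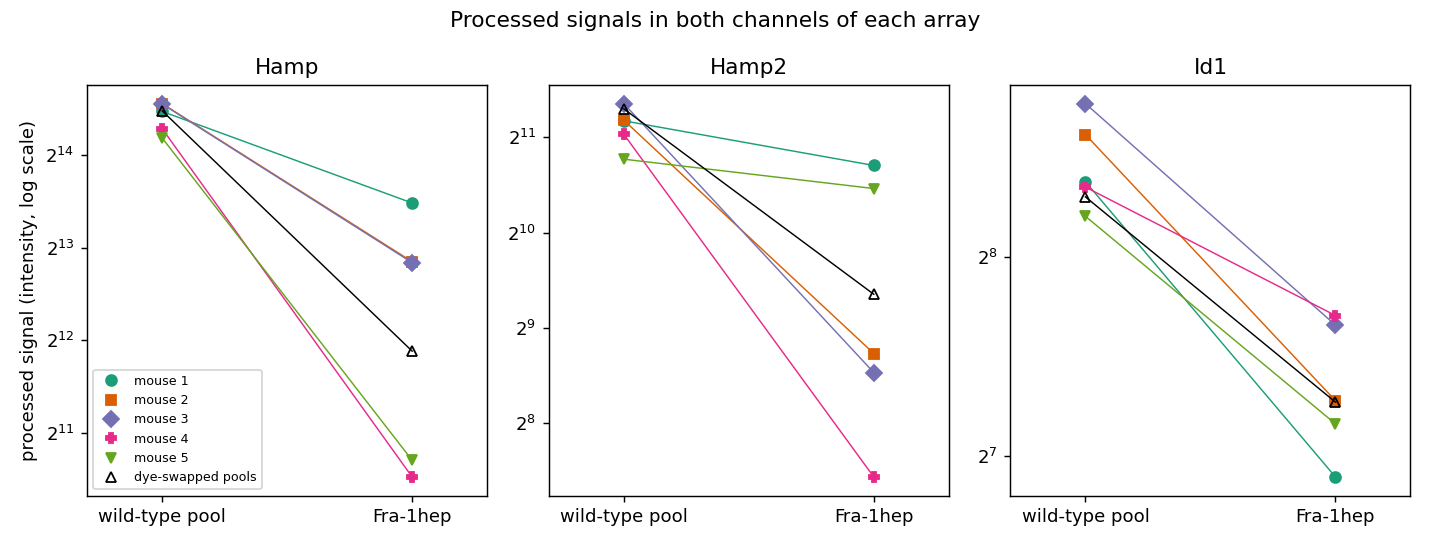
Processed signal (intensity, log scale) of Hamp, Hamp2 and Id1 in the wild-type and Fra-1hep channels of each array, joined by a line for each array; each panel has its own scale. All 6 lines fall in each panel, and for Hamp2 those of mice 1 and 5 fall least.

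Both hepcidin probes were among the most variable on the array. Their SD between samples ranked 13 (Hamp) and 12 (Hamp2) from the top among the probes tested, whose median SD was 0.12. Mice 2 and 3, counted as 1 sample, differed by 0.05 for Hamp and 0.32 for Hamp2. Mice 3 and 4 shared a slide and were 2.04 apart for Hamp and 0.58 apart for Hamp2. Mice 1 and 2 shared another and were 0.71 apart for Hamp and 1.77 apart for Hamp2. The part of the slide in these values was not tested.

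Upstream of hepcidin, the sensing genes lay close to wild type. Bmp6 (NM_007556, probe A_52_P413646), the main BMP ligand of iron sensing, was slightly lower on all 6 arrays. Its log2 ratios were -0.22, -0.33, -0.24, -0.16 and -0.24 in mice 1 to 5 and -0.09 in the dye-swapped pools, with a fitted value of -0.16 (SE 0.06). That was one of the narrowest spreads among the 12 probes (SD 0.05). The probe was dim, with signals of 54.4 to 98.1 in Fra-1hep mice and 68.3 to 128.8 in the pool. These ranges overlap between arrays, but on each array the Fra-1hep signal was below that of the pool. The ratio was -0.32 with the processed signals, -0.27 with no offset in the background correction and -0.23 from the mouse arrays alone.

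Hjv (NM_027126, probe A_51_P206824), the BMP coreceptor hemojuvelin, had log2 ratios of -0.16, -0.16, -0.24, -0.29 and 0.04 in mice 1 to 5 and -0.08 in the dye-swapped pools. The fitted value was -0.12 (SE 0.07), with mouse 5 the only array above 0. Tfr2 (NM_015799, probe A_55_P1955532), the transferrin sensor of hepatocytes, was at 0.10, -0.24, -0.07, -0.04 and 0.04 in the mice and -0.10 in the pools. It lay on both sides of 0, with a fitted value of -0.06 (SE 0.07), and at 0.11 when arrays were centred on their median in place of loess.

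The SMAD targets differed, with Id1 lower on every array and Smad7 closer to wild type and above 0 in mouse 4. Id1 (NM_010495, probe A_55_P2052563), an inhibitor of bHLH transcription factors induced by BMP signalling, had signals of 118.8, 155.1, 201.9, 208.8 and 143.0 in mice 1 to 5, against 295.3 to 437.7 for the wild-type pool. No Fra-1hep signal reached the lowest wild-type signal. The log2 ratios were -1.04, -1.01, -0.91, -0.45 and -0.79 in the mice and -0.92 in the dye-swapped pools, with a fitted value of -0.86 (SE 0.11, SD 0.26, n = 4), or 1.82-fold lower. Mouse 4, which had the least Hamp and Hamp2, kept the most Id1.

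Smad7 (NM_001042660, probe A_51_P403636), an inhibitory SMAD that damps hepcidin transcription, was at -0.02, -0.01, -0.21, 0.26 and -0.18 in mice 1 to 5 and -0.33 in the dye-swapped pools. The highest value was again in mouse 4, the only array above 0, and the fitted value was -0.17 (SE 0.09). From the mouse arrays alone it was -0.01.

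Of the 3 Tfrc probes (NM_011638), the one spotted 10 times on each array (A_52_P228236) was at -0.70 in mouse 1 and at 0.12, 0.15, 0.19 and 0.17 in mice 2 to 5, with 0.05 in the dye-swapped pools. The brighter single-spot probe (A_65_P06446) also had mouse 1 lowest, at -0.49, with 0.08, 0.12, 0.50 and 0.25 in the others and -0.12 in the pools. Mouse 1 was the lowest on both and the only mouse below 0. The third probe (A_51_P167876) lay between 0.01 and 0.12 in the mice, but its signal was 13.1 to 24.4 in the mice and wild-type RNA gave a signal well above background on 2 of 6 arrays, so the offset draws its ratios towards 0. Fitted values were 0.00 (SE 0.16), -0.01 (SE 0.15) and 0.05 (SE 0.06) in the same order, and -0.70 in mouse 1 is a 1.62-fold lower signal.

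Slc40a1 (NM_016917, probe A_51_P389988), the iron exporter ferroportin and target of hepcidin, was below wild type on all 6 arrays. Mouse 1 was lowest at -0.91, mice 2 and 3 were at -0.63 and -0.62, mouse 5 was at -0.35, mouse 4 was at -0.07 and the dye-swapped pools were at -0.44. The fitted log2 ratio was -0.46 (SE 0.14, SD 0.36), or 1.38-fold lower. Mouse 4, which had the least Hamp and Hamp2 RNA, was nearest to wild type. Hepcidin peptide and ferroportin protein were not measured. The Fra-1hep signals of 2772.7 to 3772.8 overlapped the wild-type range of 3730.9 to 5104.4 in mouse 4 alone. On its own array mouse 4 was at 3772.8 and the pool at 3996.7.

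Slc40a1 is abundant in Kupffer cells, and 8 of 9 tested Kupffer cell and macrophage markers were lower, with a median of -0.59. The summed signal of the 9 markers ran from 40270 to 70080 in the Fra-1hep mice and from 78360 to 112600 in the wild-type pool on those arrays. Among the mice, mouse 4 was nearest to wild type for 5 of the 9 (Cd5l, Timd4, Marco, C1qa and Lyz2) and mouse 5 for 4 (Adgre1, Clec4f, Vsig4 and Csf1r). All 9 markers were measured above background. Their part in the Slc40a1 values was not tested.

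Alas2 (NM_009653, probe A_51_P327451), the erythroid enzyme that starts heme synthesis, was lower on all 6 arrays. Its signals were 3973.3 to 4882.6 in the Fra-1hep mice and 6836.2 to 8754.1 in the wild-type pool, with no overlap. The log2 ratios were -0.88, -0.86, -0.87, -0.95 and -0.56 in mice 1 to 5 and -0.48 in the dye-swapped pools, and the fitted value was -0.65 (SE 0.08, SD 0.17), or 1.56-fold lower. Of 7 tested red blood cell markers 0 passed and none was below 0 on all 6 arrays, with Hba-a1, an alpha globin gene, between -0.70 and 0.21 in the mice. The summed signal of the 10 markers on the array was 170700 to 210000 in the mice and 151600 to 227600 in the pool. Their part in the Alas2 values was not tested.

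**Figure D3:**
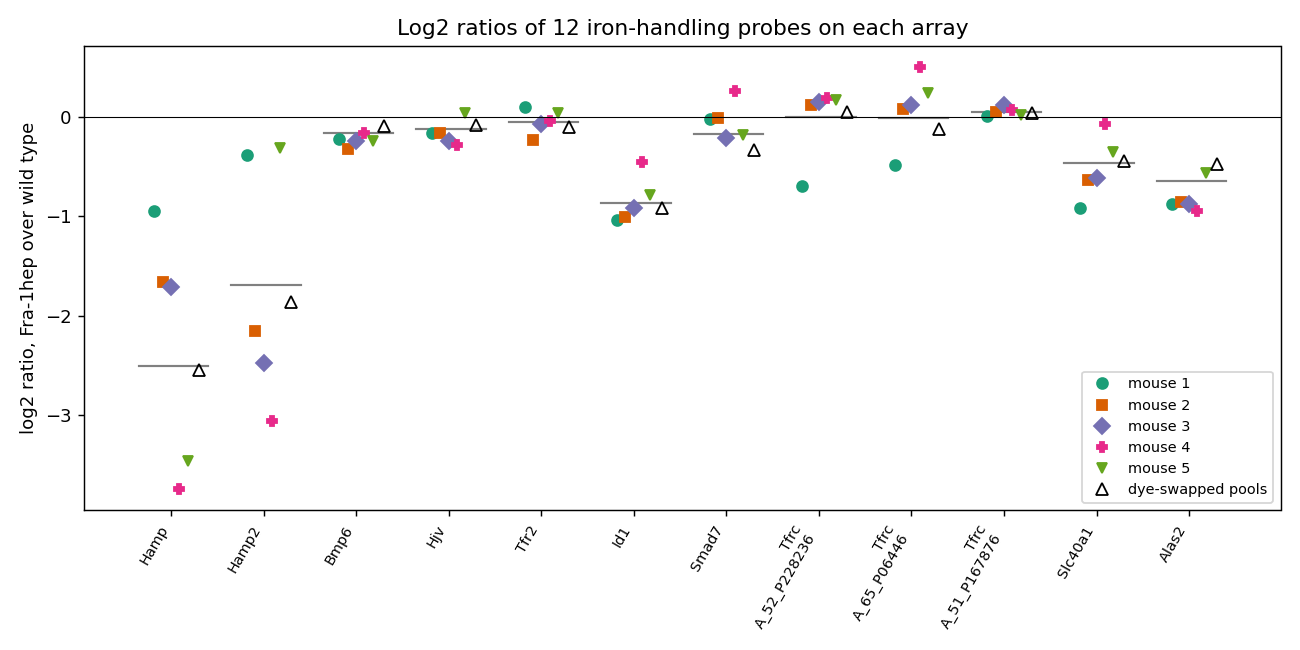
Log2 ratio of Fra-1hep over wild type (y axis) for each of the 12 probes (x axis), with a filled point for each mouse, a triangle for the dye-swapped pools and a grey line at the fitted value. Hamp and Hamp2 spread over 2.80 and 2.74 log2 units between the mice, while Bmp6 spreads over 0.16.

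Read as a group, 6 of the 12 probes were below 0 on all 6 arrays (Hamp, Hamp2, Bmp6, Id1, Slc40a1 and Alas2) and 1 above 0 (the dim Tfrc probe), against 12.2% and 13.3% of all probes. That Tfrc probe passed the filter on dim signal through the Fra-1hep channel alone, so its place above 0 is no support for a rise. The median fitted log2 ratio of the 12 probes was -0.17, against 0.01 for all probes. At an adjusted p under 0.05 (limma, Benjamini-Hochberg over the 30105 probes), 11.6% of all probes were called, 6.05% lower and 5.52% higher; Hamp, Id1 and Alas2 were called lower and no member was called higher. The genes were chosen on this contrast, so nothing is read from these counts. When each array was centred on its median and loess left out, 74.3% of all called probes were higher, against 47.7% here, and the same 3 genes were called.

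Beyond these genes, 7 lists of iron and heme handling, BMP, IL-6 and STAT3 signalling, acute phase genes and hepcidin transcription factors were looked at. They held 84 further genes, and 80 were tested by their brightest probe. Of these, 21 fell, 3 rose and 56 did not pass, which is 30% changed, against 16.1% of all 13953 genes with a symbol (8.23% lower, 7.83% higher). Of the 21 that fell 18 were lower on all 6 arrays, and of the 3 that rose 2 were higher on all 6. The calls were made from the same 6 arrays, so this agreement is no separate support for them. Several of these genes were known from earlier results to be lower. The count was 6 with the processed signals, 11 with no offset and 43 from the mouse arrays alone. Over all probes, 1626 of 30105, 2185 of 30105 and 7585 of 30110 were called under these settings, against 3483 of 30105 in the main fit. The 30% and 16.1% thus hold for the main fit alone.

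Among BMP and SMAD inputs 2 of 18 genes fell and 0 rose (median -0.00, against 0.00 for all genes with a symbol). Bmp2, the second endothelial BMP ligand of hepcidin, fell (log2 -0.72, SE 0.17, adjusted p = 0.0295 by limma), with mice 2 and 3 at -1.43 and -1.36 and the others from -0.87 to -0.38; its adjusted p was 0.0504 without mouse 4, 0.0878 with no offset and 0.127 with the processed signals. Gdf15, a stress-induced growth factor of the TGF-beta family, fell 2.18-fold (-1.13, SE 0.12, adjusted p = 0.00127) on all 6 arrays. The protease Tmprss6, which cleaves hemojuvelin (-0.02, SE 0.06), the hemochromatosis gene Hfe (0.01, SE 0.06) and the receptor Bmpr1a (0.11, SE 0.07) did not pass.

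Sinusoidal endothelial markers, from the cells that make BMP ligands, fell in 8 of 10 cases with a median of -0.47. Their summed signal was 15170 to 19180 in the mice and 23660 to 30630 in the pool on the same arrays. All 10 were above background. Their part in the Bmp2 and Bmp6 values was not tested.

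Of 5 tested further SMAD targets 2 fell and 3 did not pass, with a median of -0.17. Id3 fell on every array (-0.65, SE 0.07, adjusted p = 0.000936), as did Id2 (-0.56, SE 0.11, adjusted p = 0.0163), for which mouse 4 was at -0.07 and the other mice between -0.68 and -0.58. The Id2 call ended with median centring (-0.41, adjusted p = 0.0616), no offset (0.061) and the processed signals (0.0997). Both encode relatives of Id1. Id4 (-0.10), Smad6 (0.12) and Atoh8 (-0.17), a transcription factor that follows BMP and iron signals, did not pass.

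**Figure D4:**
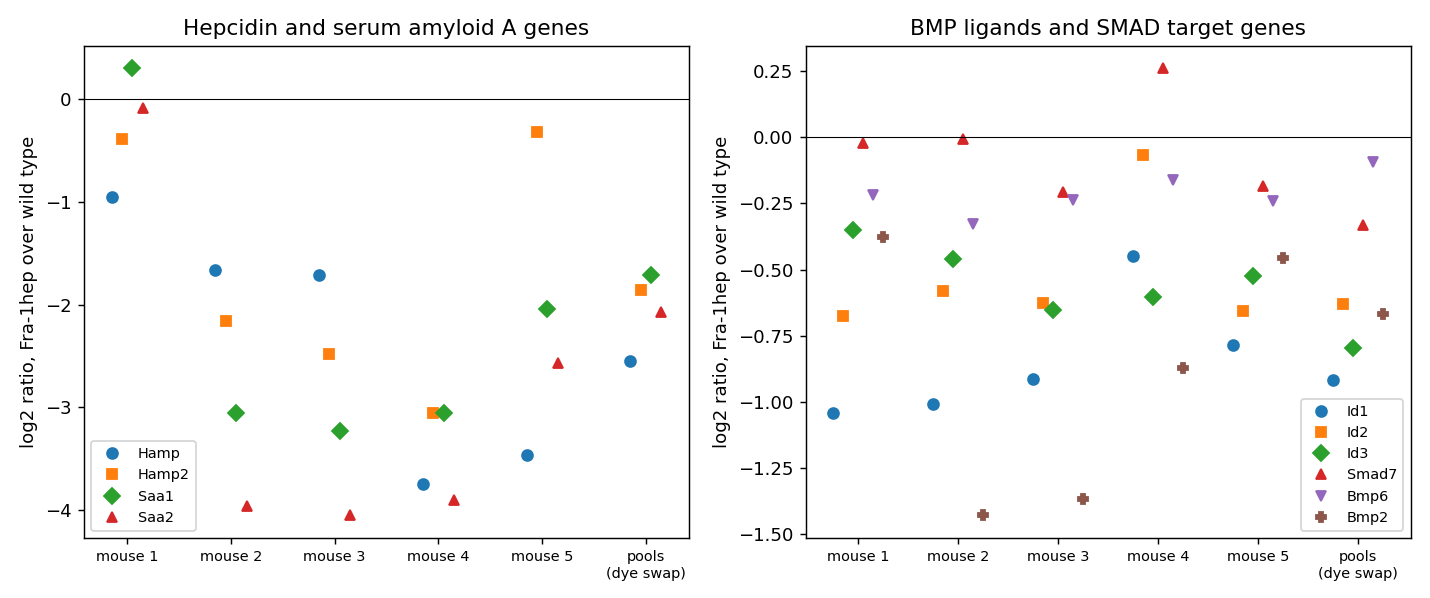
Log2 ratio of Fra-1hep over wild type (y axis) on each array (x axis) for hepcidin and serum amyloid A genes (left) and for BMP ligands and SMAD targets (right), with a symbol for each gene; the panels have different scales. Mouse 1 is highest for both Saa genes and for Hamp, and mouse 4 is highest for Id1, Id2 and Smad7.

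Of 14 tested genes of the IL-6 and STAT3 input and of hepcidin transcription factors 3 fell, 1 rose and 10 did not pass, with a median of -0.15. The receptor subunits moved apart, Il6ra higher (0.63, SE 0.09, adjusted p = 0.00373) and the shared subunit Il6st lower (-0.41, SE 0.08, adjusted p = 0.0143). With the processed signals neither passed (adjusted p = 0.0599 and 0.0837), and Il6st also did not pass with median centring (-0.27, adjusted p = 0.0521) or no offset (0.056). Saa2, an acute phase gene induced through STAT3, fell (-2.36, SE 0.62, adjusted p = 0.0461), with mouse 1 at -0.09 and the other mice between -4.05 and -2.57; its adjusted p was 0.0647 without mouse 4, 0.0802 without mouse 5, 0.104 with the intensity trend, 0.116 with no offset and 0.156 with the processed signals. Crp fell slightly (-0.28, SE 0.07, adjusted p = 0.0372), a call that ended under 6 alternatives, with median centring the farthest (-0.12, adjusted p = 0.355), and with adjusted p = 0.132 for the processed signals, 0.113 for no offset, 0.0835 for the intensity trend, 0.0633 without mouse 4 and 0.0519 without mouse 5. Stat3 itself (-0.21, adjusted p = 0.0682), its feedback target Socs3 (0.16, adjusted p = 0.737) and the hepatocyte transcription factors Cebpa (-0.29, adjusted p = 0.131) and Hnf4a (0.15, adjusted p = 0.318) did not pass.

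The Saa genes shared with Hamp that mouse 1 was nearest to wild type. Saa1 was at 0.30 in mouse 1 and between -3.23 and -2.05 in the others (fitted -1.85, adjusted p = 0.0685). The genes differed in mice 4 and 5, where Saa1 was at -3.06 and -2.05 and Hamp at -3.75 and -3.46.

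In iron uptake, storage and export 7 of 19 genes fell, 1 rose and 11 did not pass, with a median of -0.07. The metalloreductases Steap2 (-0.84, SE 0.08, adjusted p = 0.000709) and Steap4 (-0.45, SE 0.08, adjusted p = 0.00801), the siderophore-binding Lcn2 (-0.82, SE 0.07, adjusted p = 0.000438) and the mitochondrial iron carrier Slc25a37 (-0.41, SE 0.07, adjusted p = 0.00728) were lower on all 6 arrays, a further Slc25a37 probe not passing (-0.19). With the processed signals Steap4 (adjusted p = 0.0546), Slc25a37 (0.06) and Ltf (0.0538) did not pass, nor did Ltf with the intensity trend (0.0619). Ltf, the iron-binding lactoferrin of neutrophil granules, rose 4.57-fold (2.19, SE 0.36, adjusted p = 0.00694), beside 8 of 9 neutrophil markers that rose (median 2.39) and a summed neutrophil signal of 10940 to 52360 in the mice against 2630 to 3344 in the pool; their part in the Ltf value was not tested. The ferritin genes had opposite signs in the mice and in the dye-swapped pools, where dye orientation and pooling cannot be told apart. Ftl1, singled out after its values were seen, was counted as lower (-0.35, SE 0.07) although all 5 mice lay between 0.09 and 0.39, with the dye-swapped pools at -0.92, and Fth1 lay between 0.42 and 0.61 in the mice and at -0.55 in the pools.

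The 3 iron regulatory protein genes, which control Tfrc and ferritin after transcription, did not pass, with a median of -0.05. In heme synthesis 2 of 11 genes fell, 1 rose and 8 did not pass, with a median of -0.05. Alad (-0.40, SE 0.08, adjusted p = 0.0128) and Cpox (-0.43, SE 0.09, adjusted p = 0.018), a cytosolic and a mitochondrial step of the pathway, were lower on all 6 arrays. Both calls ended with median centring (-0.24, adjusted p = 0.0656, and -0.27, adjusted p = 0.0709), no offset (0.0551 and 0.0653) and the processed signals (0.0726 and 0.0925). Alas1, which starts heme synthesis in hepatocytes, did not pass on either probe (-0.01, SE 0.13, and -0.24, SE 0.09).

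Heme and hemoglobin scavenging had 5 of 10 genes lower, 0 higher and 5 not passing, with a median of -0.24. Hpx, the plasma heme carrier hemopexin (-0.97, SE 0.09, adjusted p = 0.000744), Hmox1, the heme oxygenase that frees iron from heme (-0.55, SE 0.07, adjusted p = 0.00217; further probe -0.46), and the biliverdin reductase Blvrb (-0.46, SE 0.09, adjusted p = 0.0163) were lower on all 6 arrays, with Blvrb not passing with no offset (0.0606) or the processed signals (0.0976). Hp, the hemoglobin carrier haptoglobin (-0.67, SE 0.10, adjusted p = 0.00513), rested on the dye-swapped array at -1.32, with the mice between -0.26 and 0.25 and an adjusted p of 0.87 from the mouse arrays alone (0.0593 with the processed signals). Hmox1 and the scavenger receptor Cd163 are macrophage genes as well, and the Kupffer cell marker values given with Slc40a1 stand beside them.

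**Figure D5:**
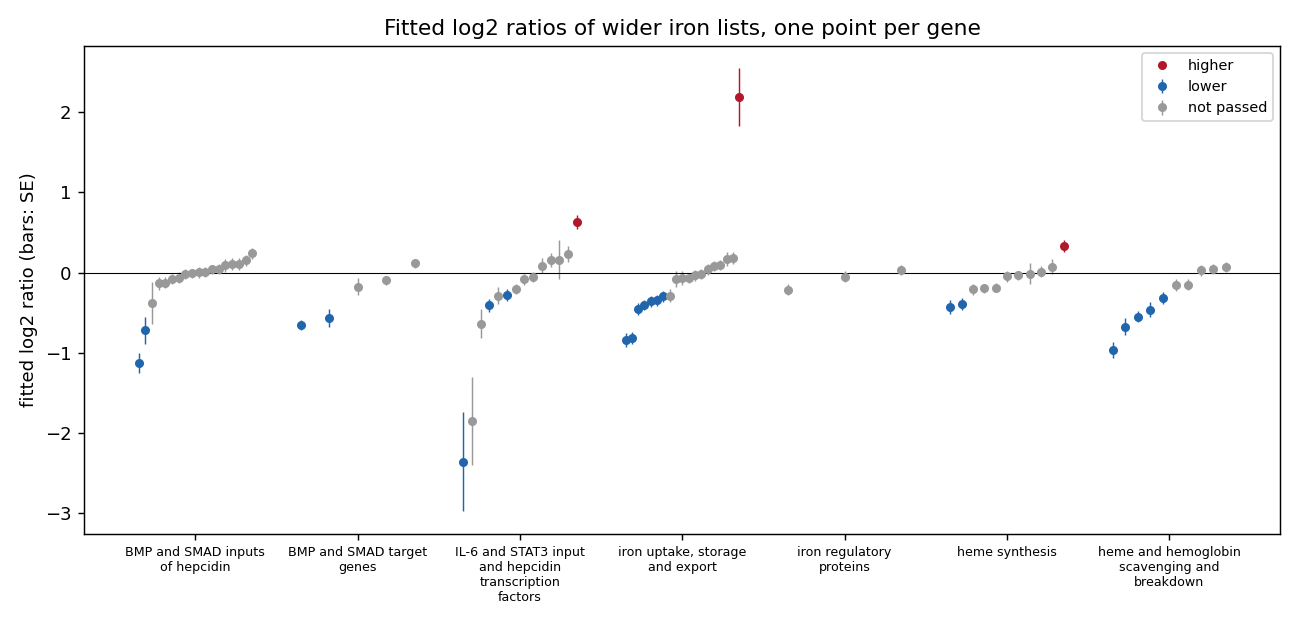
Fitted log2 ratio with SE (y axis) of each tested gene in the 7 further lists (x axis), ordered by value within a list, blue where it fell, red where it rose and grey where it did not pass. Saa2 and Saa1 lie lowest and Ltf highest.

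No gene lay close to Hamp in the size of its log2 ratios on all 6 arrays. The measure used compares size, so it cannot find a gene with the same pattern between mice but smaller changes. Over 13943 genes with a symbol, compared by the root mean square difference of log2 ratios from Hamp on the 6 arrays, the nearest were Clstn3 (1.02), Ugt1a10 (1.04), Slc3a1 (1.17), Orm3 (1.18) and Fabp1 (1.21). These were lower on every array, but none had both mice 4 and 5 as low as Hamp: Clstn3 was at -2.19 and -1.77 and Fabp1 at -2.94 and -1.12. The 6 arrays share the wild-type pool.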

How the data were processed

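The members and gene lists were chosen with earlier results of these data known. Per the submitters' processing notes, images were extracted with Agilent Feature Extraction 10.7 (version 10.7.3.1 in the headers). Per the file headers, each scanner output gives median spot and background intensity without normalization, processed intensity (background-subtracted, detrended, dye-normalised) and log10 ratios of the latter. The deposited value table of the series gives log2 ratios, the dye-swapped array already turned, with column medians from -0.18 to 0.06 (not centred); it was set against the scanner files (correlation 0.9679 to 0.9987, median absolute difference at most 4.35e-07) and otherwise not used, and how its other probes differ is unknown.

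Median signals were corrected by normexp (offset 50) and normalised by loess within arrays in limma 3.58.1 (R 4.3.3), with control and outlier spots (379 to 572 per array) given weight 0 and outlier spots then left out; spots of a probe were averaged. The offset draws dim ratios towards 0. No spot of a probe was saturated. Probes were named by accession through the GRCm38.p6 RefSeq list (26056 probes had 1 symbol and 29625 had none or several); the array was designed on another build, so no probe positions are given.

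A probe was tested if well above background on at least 3 of 5 mouse arrays in the Fra-1hep channel or 3 of 6 in the wild-type channel; 5 such probes had too few spots to fit. Log2 of Cy5 over Cy3 was fitted by lmFit and eBayes with a genotype coefficient and a dye constant (3 residual and 5.15 prior degrees of freedom), 2-sided, Benjamini-Hochberg over 30105 probes. The dye-swapped array weighs as much as all mice, and its own error is not estimated. P-values measure the spread between these mice. A wider list was read by each gene's brightest probe. Named were all members and up to 4 changed genes per list and direction. The 5 genes nearest to Hamp in log2 ratio were also named, beside others named as not passing. The named results of 2 listed genes are not reported here. The fit was tested on simulated data. Promoters were searched and aligned in python 3.11.15 (pandas 2.3.3) with biopython 1.88. Alternatives were the processed signals, median centring, offset 0, no dim filter, 5 separate mice, no dye-swapped array, intensity trend with robust variance, slide as a block or the slide with both dye orientations alone, each mouse left out, and other ways to treat several probes of a gene.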

Additional observations from a re-analysis of the deposited data

Results flagged for a closer look

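Of 46 probes of members and named genes, 2 had 1 of the 4 counted samples far from the others, where chance alone gives about 5% of such groups. Tfrc (A_52_P228236) was at -0.70 in mouse 1 and between 0.14 and 0.19 in the other samples. Id2 was at -0.069 in mouse 4 and between -0.68 and -0.60 in the other samples.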

How the results depend on the processing

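The fitted ratios of Hamp (-2.76 to -2.29), Hamp2 (-2.32 to -1.43), Id1 (-1.07 to -0.78), Slc40a1 (-0.53 to -0.31) and Alas2 (-0.81 to -0.49) stayed below 0 under each of 12 alternatives. So did the smaller ratios of Bmp6 (-0.32 to -0.12) and Smad7 (-0.31 to -0.01). The number of probes called was 1626 with the processed signals, 2185 with offset 0, 7585 from the mouse arrays alone and 2913 to 3304 with 1 mouse left out. The changed genes of the wider lists numbered 6, 11, 43 and 22 to 25 under the same settings. Among members, 5 probes were called with 5 separate mouse arrays or with slide as a random block (Hamp2 and Slc40a1 added). From the mouse arrays alone 6 were called (Bmp6 also added), and 3 to 5 with 1 mouse left out. Over all 30105 probes, 4124 were called with separate mouse arrays and 4098 with slide as a block, against 3483 in the main fit. Nothing is read from the member counts. With the processed signals Hamp was not called. The cause of these shifts was not tested. Of the values of named genes under alternatives 385 kept their side of the threshold, 57 no longer passed and 0 changed sign. No paired analysis was possible because the wild-type side is a single pool. Signal over background limits Bmp6 and the dimmest Tfrc probe.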

Other observations

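Fgl1, which encodes a liver-secreted protein known to bind BMP6 and lower hepcidin, was chosen here after its values were seen. Its 2 probes separated the mice alike: one was at -0.32, 0.29, 0.29, -1.28 and -1.28 in mice 1 to 5 and the other at -0.36, 0.10, 0.05, -1.30 and -1.35, with the dye-swapped pools at -0.11 and -0.16. Mice 4 and 5, where Fgl1 was lowest, were also those with the lowest Hamp ratios, while Hamp2 was at -3.06 in mouse 4 and -0.32 in mouse 5. Neither probe passed the test of the mean change (adjusted p = 0.433 and 0.303 by limma).

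Socs3, a feedback inhibitor induced by STAT3, ran from -0.83 in mouse 1 to 0.86 in mouse 4, with 0.05, 0.06 and -0.06 in mice 2, 3 and 5 and 0.32 in the dye-swapped pools. Mouse 4, with the highest Socs3, had the lowest Hamp and Hamp2, and mouse 1, with the lowest Socs3, had the highest Hamp. Mouse 5 went otherwise: its Socs3 was near that of mice 2 and 3, but its Hamp was at -3.46, against -1.66 and -1.71. For Hamp2 mouse 5, and not mouse 1, was highest (-0.32). Socs3, like Fgl1, did not meet the rule by which changed genes were named. All values are from 5 mice against 1 pool, and no test was made of the Fgl1 or the Socs3 pattern.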
